A study of Homo sapiens with 4 samples.

Results

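CD44 and the genes that make, bind, organise and degrade hyaluronan were examined in HGC-27 cells, a poorly differentiated gastric cancer cell line, with and without RUNX3. The 10 members were taken by gene symbol from the 25559 gene symbols of the count tables. They are the receptor CD44, the synthases HAS2 and HAS3, the link proteins HAPLN1 and HAPLN3, the proteoglycan VCAN, the hyaluronidases HYAL2, HYAL3 and TMEM2, and the precursor enzyme UGDH. RNA-seq was available from 2 libraries of wildtype HGC-27 cells (control) and 2 libraries of RUNX3 knock-out HGC-27 cells (RUNX3 KO). The knockout was made with lentiviral Cas9 and a guide against a coding exon of RUNX3, followed by puromycin selection and single-cell cloning. The number of clones behind the RUNX3 KO libraries and whether the replicates were separate cultures are not given in the sources used here, so p-values measure only the spread between these libraries, which may be technical, and a clone's own features cannot be told apart from loss of RUNX3.

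Hyaluronan is a long unsulfated glycosaminoglycan of the extracellular matrix, built at the plasma membrane by the HAS enzymes from UDP-glucuronic acid and UDP-N-acetylglucosamine. Link proteins and aggregating proteoglycans such as versican bind the polymer and stabilise the pericellular coat. Surface and lysosomal hyaluronidases cut the polymer. CD44 is its main cell surface receptor, which is widely used as a marker of tumour-initiating cells and is linked to adhesion and migration of cancer cells.

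Between 11731401 and 12110876 reads per library had been assigned to a gene. RUNX3 itself had 351 and 308 counts in control and 225 and 185 in RUNX3 KO libraries, a log2 fold change of -0.70 (SE 0.0961, edgeR adjusted p = 1.43e-09), so its transcript was lower in RUNX3 KO cells but still counted. A count over the whole gene does not show what the edited transcript encodes. By immunoblot, the study reports that its knockout cells lacked RUNX3 protein. The gastric epithelial markers fixed for the label were nearly absent, since 7 of 10 did not exceed 3 counts in any library, EPCAM, MUC5AC, TFF1 and CLDN18 among them, and the summed level of the 10, in counts per 1000000 of the scaled library (CPM), ran from 2.80 to 2.97 CPM in control and from 8.81 to 10.6 CPM in RUNX3 KO cells. Leukocyte and endothelial markers summed to at most 1.44 and 0.339 CPM. All 5 fibroblast and mesenchymal markers were counted in every library and summed to 5215 to 5245 CPM in control and 3113 to 3177 CPM in RUNX3 KO cells. VIM made up most of this sum with 4885 CPM in control, whereas PDGFRB was at 7.50 CPM. The part of these marker shifts in the changes of the members was not tested.

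Of the 10 members, 9 passed the filter on low counts, and VCAN did not. In RUNX3 KO cells CD44, HAS2 and HAPLN1 fell, HAS3, HAPLN3 and TMEM2 rose, and HYAL2, HYAL3 and UGDH did not pass the test. A gene was called when its adjusted p (edgeR quasi-likelihood test, Benjamini-Hochberg over all 12967 genes tested) was below 0.05. By that rule 24.4% of all tested genes were lower and 24.5% higher, against 33.3% of the 9 tested members in each direction. The 3 members that fell did so by more than 2-fold, which 3.95% of all tested genes did. HAS2, among them, passed the filter only through its control libraries and so could only be called lower. None of the 3 members that rose reached 2-fold, which 2.11% of all tested genes did. The CPM of the 2 groups did not overlap for 7 of the 9 members, and the same held for 72.7% of all tested genes. The median log2 fold change was -0.11 over the 9 members and -0.0021 over all tested genes. These are bulk libraries, in which fewer cells that carry a transcript and less of it per cell cannot be told apart.

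**Figure D1:**
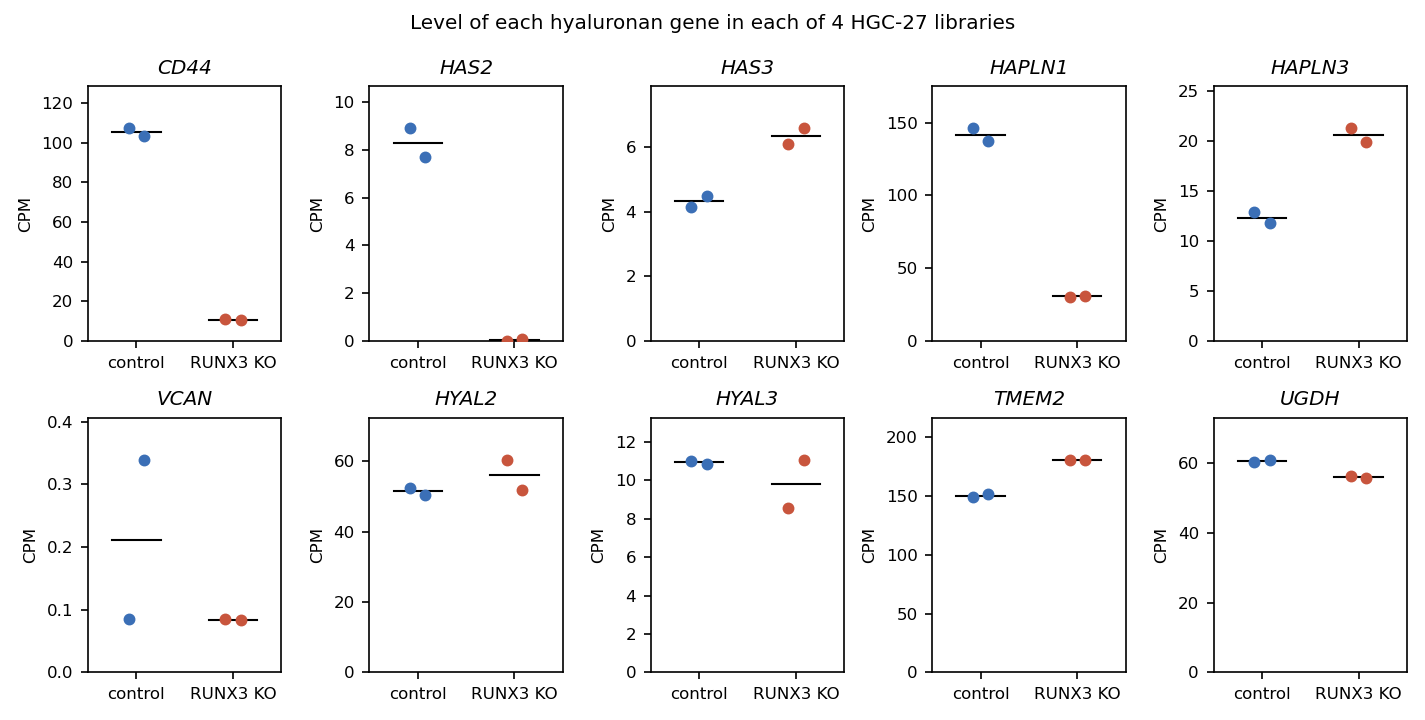
Level of each of the 10 members in CPM (y axes, each from 0 on its own scale) in 2 control libraries (blue) and 2 RUNX3 KO libraries (red). Each point is 1 library and each line the mean of 2. The RUNX3 KO points of CD44 (10.9 and 10.4 CPM) lie far below the control points (107 and 104 CPM), whereas the points of HYAL2 and HYAL3 are interleaved between groups.

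The gene for CD44 spans bases 35160429 to 35253949 of chromosome 11 on the plus strand (hg19). Its counts were 1266 and 1221 in control and 129 and 125 after loss of RUNX3. Both RUNX3 KO libraries lay at about the same low level, and the groups were far apart. Means with SD of 2 libraries were 105 ± 2.67 CPM in control and 10.7 ± 0.376 CPM in RUNX3 KO cells, so the level fell by 9.87-fold. The log2 fold change was -3.30 with a 95% interval from -3.45 to -3.15 (edgeR adjusted p = 9.96e-58). Only 0.586% of all tested genes had a lower log2 fold change. Per kilobase of merged exons, which allows levels of different genes to be compared, CD44 stood above 65.6% of 12210 tested genes with a known length in control cells and above 16.2% in RUNX3 KO cells. CD44 is spliced into a standard form and longer variant forms, which a count per gene does not separate. ESRP1, a splicing factor known to favour the variant forms, had 1 and 0 counts in control and 3 and 5 in RUNX3 KO libraries. ESRP2, its close relative, had from 4 to 8 counts in every library. The 40 tested genes nearest to CD44 had a median log2 fold change of -0.04.

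HAPLN1 was the other abundant member that fell. It encodes a link protein, first known from cartilage, which binds hyaluronan and proteoglycan at once, and lies on chromosome 5 from 82933624 to 83016674 (hg19, minus strand). It had 1722 and 1618 counts in control and 360 and 371 in RUNX3 KO libraries, so that each RUNX3 KO library was far below each control library. Means with SD of 2 libraries were 141.5 ± 6.19 CPM in control and 30.7 ± 0.254 CPM in RUNX3 KO cells, so the level fell by 4.61-fold. The log2 fold change was -2.20 with a 95% interval from -2.31 to -2.09 (edgeR adjusted p = 2.37e-54). Around HAPLN1, 21 of the 40 closest tested genes had a negative log2 fold change (median -0.02).

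HAPLN3, a second link protein with wider tissue expression, moved the opposite way. It lies on chromosome 15 from 89420525 to 89438828 (hg19, minus strand) and had 152 and 139 counts in control and 251 and 240 in RUNX3 KO libraries. Both RUNX3 KO libraries were above both control libraries, at 20.6 ± 0.921 against 12.3 ± 0.775 CPM (SD over 2 libraries each). Its log2 fold change was 0.74 with a 95% interval from 0.53 to 0.96 (edgeR adjusted p = 7.79e-09), a rise of 1.67-fold. Most genes around HAPLN3 had positive values as well. Of its 40 nearest tested genes 9 had a negative log2 fold change, and their median log2 fold change was 0.54, which leaves 0.20 for HAPLN3 after subtraction. The part of this shared shift in the rise of HAPLN3 was not tested.

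The promoters of CD44 and HAPLN1, which fell together, are shown with that of HAPLN3, which rose. Each window runs from 250 bases before to 50 bases after the RefSeq start of the gene (GRCh38.p14, gene strand, 5′ to 3′). The study names RUNX motifs at RUNX3-bound sites around transcription starts. It names CDX2, LHX2 and TCF motifs, besides RUNX, only at bound sites distal to the starts, so the windows do not test that finding. The windows are chr11:35138921-35139220 for CD44 (plus strand), chr5:83720806-83721105 for HAPLN1 (minus strand) and chr15:88895495-88895794 for HAPLN3 (minus strand). Capitals mark matches on either strand to TGTGGT or TGCGGT (core of the RUNX motif), TAATTA (LHX2), CATAAA or AATAAA (CDX2) and ATCAAAG (TCF). The letters for LHX2, CDX2 and TCF were chosen after the data had been seen.
CD44: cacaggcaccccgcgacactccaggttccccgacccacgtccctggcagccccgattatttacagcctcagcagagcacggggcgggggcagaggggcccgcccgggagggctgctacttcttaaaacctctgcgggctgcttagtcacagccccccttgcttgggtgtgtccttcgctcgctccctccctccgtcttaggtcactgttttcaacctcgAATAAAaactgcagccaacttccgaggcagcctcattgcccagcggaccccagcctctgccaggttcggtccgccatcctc
HAPLN1: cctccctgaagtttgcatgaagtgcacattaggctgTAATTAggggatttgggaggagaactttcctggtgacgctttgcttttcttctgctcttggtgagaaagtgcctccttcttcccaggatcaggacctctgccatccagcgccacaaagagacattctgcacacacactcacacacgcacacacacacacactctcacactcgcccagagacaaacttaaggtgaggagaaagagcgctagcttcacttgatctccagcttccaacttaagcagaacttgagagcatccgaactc
HAPLN3: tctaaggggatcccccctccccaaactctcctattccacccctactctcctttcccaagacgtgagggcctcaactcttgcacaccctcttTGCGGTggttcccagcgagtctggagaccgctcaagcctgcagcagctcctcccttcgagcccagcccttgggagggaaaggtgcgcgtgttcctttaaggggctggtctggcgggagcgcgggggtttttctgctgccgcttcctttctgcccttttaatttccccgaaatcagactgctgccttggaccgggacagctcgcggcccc

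The RUNX core was found in the HAPLN3 window, at position -159 from the start, and in neither the CD44 nor the HAPLN1 window. The CD44 window held AATAAA at position -31, and the HAPLN1 window held TAATTA at position -214. Over all 35116 windows of this length, 19.6% held a RUNX core, 24.3% a CDX2 match, 4.84% an LHX2 match and 2.62% a TCF match. Windows were found for 9 members, TMEM2 under its newer symbol CEMIP2, and a second window for HYAL3 brought them to 10. HAS2 had none. Besides HAPLN3, only VCAN held a RUNX core, on the reverse strand at position -195. These are matches of letters. They show neither binding nor its absence, and enhancers lie outside such windows. The study reports loops between the CD44 start and distal regions bound by RUNX3. It also lists CD44 and HAPLN1 among genes with active RUNX3 sites that hold TCF motifs.

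Among the synthases, the HAS2 transcript nearly disappeared. HAS2, on chromosome 8 from 122624356 to 122653680 (hg19, minus strand), had 105 and 91 counts in control and 0 and 1 in RUNX3 KO libraries. With 1 count in all of the RUNX3 KO cells, the fall was 198-fold with an exact 95% interval from 35.1 to 7852. This interval covers counting error only. HAS2 passed the filter on low counts only through its control libraries, so its call could only be a fall. The p of that call (edgeR adjusted p = 9.37e-26) adds nothing to the counts. HAS2-AS1, an antisense RNA that shares 251 exon bases with HAS2, had 13 and 22 counts in control and 0 in both RUNX3 KO libraries. Against a floor of 3 counts per RUNX3 KO library it was at least 5.89-fold lower. Whether reads were counted by strand is not given in the sources used here, so those of HAS2 and HAS2-AS1 may not be fully separated. The 40 genes nearest to HAS2 had a median log2 fold change of 0.04.

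HAS3, the synthase on chromosome 16 from 69139556 to 69152622 (hg19, plus strand), had 49 and 53 counts in control and 72 and 79 in RUNX3 KO libraries. The groups did not overlap, at 4.32 ± 0.241 and 6.34 ± 0.333 CPM (SD over 2 libraries each). Its log2 fold change was 0.55 with a 95% interval from 0.18 to 0.92 (edgeR adjusted p = 0.00965), a rise of 1.47-fold. This call was lost with DESeq2 (adjusted p = 0.185) and in edgeR without control replicate 1, RUNX3 KO replicate 1 or RUNX3 KO replicate 2 (adjusted p = 0.0704, 0.0679 and 0.105), and held without control replicate 2. CHTF8, a neighbour on the opposite strand that shares 365 exon bases with HAS3, fell by 0.28 on the log2 scale. HAS1 had 0 counts in all 4 libraries. The summed level of the synthases per length was 2.79 ± 0.151 CPM per kb in control and 1.23 ± 0.0779 CPM per kb in RUNX3 KO cells (SD, n = 2 in each group). Of this sum HAS3 made up 29.9% ± 3.28 in control and 99.2% ± 1.08 in RUNX3 KO cells (SD, n = 2 in each group).

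The balance between the link proteins also differed. HAPLN3 made up 13.4% ± 0.222 of their summed CPM per kb in control and 54.4% ± 1.31 in RUNX3 KO cells, while the sum went from 26.4 ± 1.22 to 10.9 ± 0.223 CPM per kb (SD, n = 2 in each group). The sums and shares were not tested. With 2 libraries a group, the smallest p of an exact permutation test is 0.333.

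Versican, which link proteins would anchor to hyaluronan, was barely transcribed. VCAN had 1 and 4 counts in control and 1 and 1 in RUNX3 KO libraries, too few for a comparison. It lies 55501 bases from HAPLN1 on chromosome 5, with no counted gene between them. The other aggregating proteoglycans likewise lie beside a link protein gene and were at the floor or close to it. ACAN, which lies 1940 bases from HAPLN3, had 0 counts in every library. BCAN had 1 or 2 counts per library and NCAN from 0 to 5. Of their neighbours, HAPLN2 had from 0 to 2 counts and HAPLN4 had 0 counts in every library. HAPLN1 and HAPLN3 were therefore transcribed without appreciable transcripts of the proteoglycan gene next to each.

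**Figure D2:**
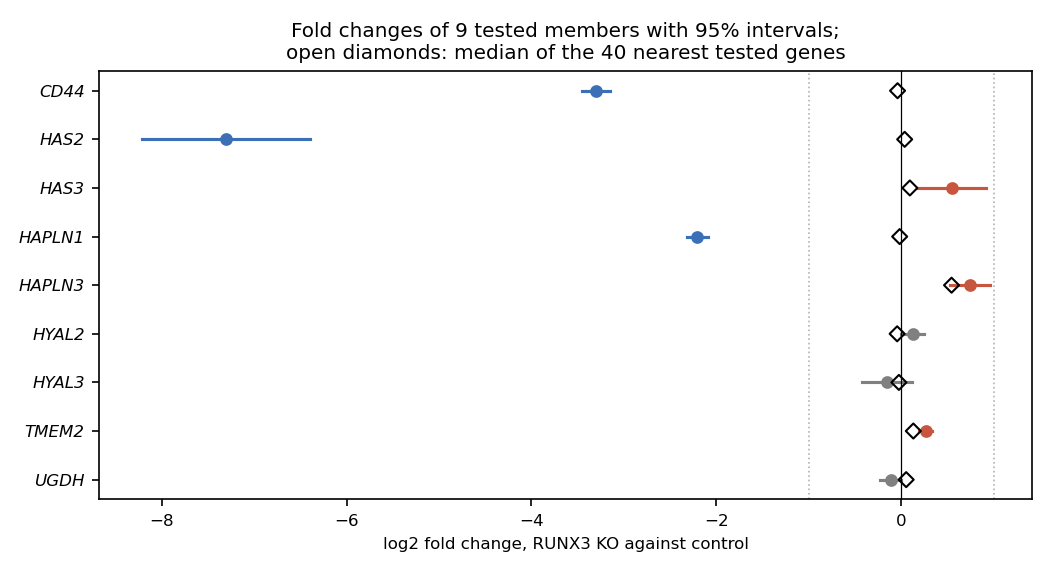
Log2 fold change of RUNX3 KO against control cells (x axis) for the 9 tested members (y axis) with 95% intervals, blue for lower and red for higher at an adjusted p below 0.05 and grey for not called. Open diamonds give the median of the 40 nearest tested genes, which lies at 0.54 for HAPLN3 and between -0.04 and 0.13 for the other members.

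The enzymes that cut hyaluronan showed small differences. TMEM2, now named CEMIP2, is a hyaluronidase of the cell surface on chromosome 9 from 74298282 to 74431606 (hg19, minus strand). It had 1757 and 1787 counts in control and 2129 and 2164 in RUNX3 KO libraries, at 150 ± 1.84 and 180 ± 0.268 CPM (SD over 2 libraries each). The groups were well separated although the rise was only 1.20-fold. The log2 fold change was 0.26 with a 95% interval from 0.19 to 0.34 (edgeR adjusted p = 2.47e-09). The 40 tested genes around TMEM2 had a median log2 fold change of 0.13.

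HYAL2 and HYAL3 lie close together on chromosome 3, HYAL2 from 50355221 to 50360213 and HYAL3 from 50330262 to 50336836 (hg19, minus strand), with HYAL1 between them. HYAL2, an enzyme anchored to the cell surface, had 620 and 597 counts in control and 713 and 624 in RUNX3 KO libraries. In CPM the RUNX3 KO libraries were at 60.4 and 51.9 and the control libraries at 52.5 and 50.6, so the groups overlapped. The log2 fold change of HYAL2 was 0.12 with a 95% interval from -0.0023 to 0.25 (edgeR adjusted p = 0.0991). It was 0.01 without RUNX3 KO replicate 1 and 0.23 without RUNX3 KO replicate 2. HYAL3, a family member whose own activity is unclear, had 130 and 128 counts in control and 101 and 133 in RUNX3 KO libraries, which lay on both sides of the control libraries. Its log2 fold change was -0.15 with a 95% interval from -0.42 to 0.11 (edgeR adjusted p = 0.359), and without RUNX3 KO replicate 1 it was 0.02. Both intervals exclude a 2-fold change. HYAL2 shares 509 exon bases with TUSC2 on the same strand, and HYAL3 shares 232 with NAT6 and 43 with IFRD2, so part of their reads may not have been assigned.

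Per length, TMEM2 made up 48.5% ± 0.840 of the summed CPM per kb of TMEM2, HYAL2 and HYAL3 in control and 52.4% ± 0.611 in RUNX3 KO cells, and the sum was 33.4 ± 0.169 and 37.2 ± 0.489 CPM per kb (SD, n = 2 in each group). The sum over the synthases was lower in both RUNX3 KO libraries than in both control libraries, and that over these enzymes was higher.

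UGDH makes UDP-glucuronic acid, which is a substrate of all HAS enzymes and of other glycosaminoglycan synthesis. On chromosome 4 from 39500375 to 39529931 (hg19, minus strand), it had 714 and 719 counts in control and 666 and 671 in RUNX3 KO libraries. The groups did not overlap, at 60.7 ± 0.317 and 56.1 ± 0.434 CPM (SD, n = 2 in each group), but the difference was small. The log2 fold change was -0.11 with a 95% interval from -0.23 to 0.0019 (edgeR adjusted p = 0.0983). UGDH passed the threshold when libraries were scaled by library size alone or by the upper quartile (edgeR adjusted p = 0.0492 and 0.0478).

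The order of the members by level per length changed between the groups. In control cells HAPLN1 led with 22.8 ± 0.999 CPM per kb, followed by TMEM2 (16.2), UGDH (15.1), HYAL2 (11.7) and CD44 (10.5). HYAL3 (5.56), HAPLN3 (3.53), HAS2 (1.96) and HAS3 (0.831) came next in CPM per kb, and VCAN was last with 0.0144. Each mean in control differed from the next by more than the sum of their SDs. In RUNX3 KO cells TMEM2 led with 19.5 ± 0.0290 CPM per kb, and UGDH (13.9) and HYAL2 (12.7) followed within the sum of their SDs. HAPLN3 (5.91) stood above HAPLN1 (4.95) by more than their SDs, and HYAL3 (4.99) lay within the summed SDs of both. HAS3 (1.22) and CD44 (1.07) came after them in CPM per kb, and HAS2 (0.00981) and VCAN (0.00572) lay at the bottom without a clear order. With the length of the canonical transcript in place of merged exons, an alternative added after the data had been seen, HYAL2 came second in control cells. In RUNX3 KO cells HYAL2 (29.8 ± 3.20 CPM per kb) and TMEM2 (29.3 ± 0.0436) then led without a clear order. HAPLN3 then came before HYAL3 in control cells, and in RUNX3 KO cells HAPLN1 came before HYAL3 and CD44 before HAS3. The places of CD44 and HAPLN1 in control and of HAS2 and VCAN in both groups were as before.

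**Figure D3:**
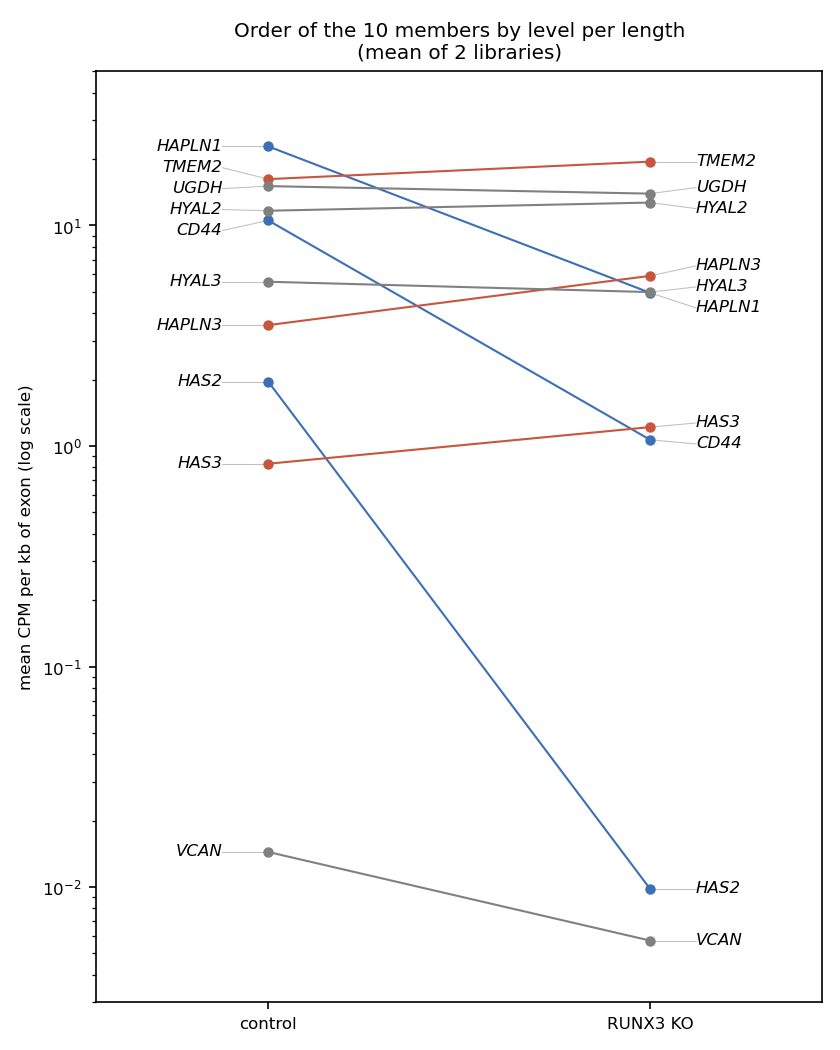
Mean level of the 10 members in CPM per kb of merged exons (y axis, log scale) in control and RUNX3 KO cells (x axis, mean of 2 libraries each). Blue lines mark members that fell, red lines members that rose, and grey lines members not called or, for VCAN, not tested. The line of CD44 runs from 10.5 to 1.07 and that of HAS2 from 1.96 to 0.00981, while TMEM2, UGDH and HYAL2 stay between 11.7 and 19.5.

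To place the members, 89 other genes of hyaluronan biology were listed by role, of which 59 passed the filter on low counts and 25 had at most 3 counts in every library. By the same edgeR call, 21 of the 59 (35.6%) were lower and 15 (25.4%) higher, beside 24.4% and 24.5% of all tested genes. The 15 became 9 without RUNX3 KO replicate 1 and 7 without RUNX3 KO replicate 2. At least 2-fold changes were seen in 5 lower genes (8.47%) and 2 higher genes (3.39%), beside 3.95% and 2.11%. PTX3, among the 5 lower genes, passed the filter only through its control libraries and so could only be called lower. The median log2 fold change of the 59 was -0.01.

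Other hyaluronan receptors and binding proteins were mostly silent, with 11 of 18 at or below 3 counts in every library. LYVE1, STAB2, TLR2 and TLR4 had 0 counts throughout. Of the 5 tested genes, 2 fell and 2 rose (40% each, beside 24.4% and 24.5% of all tested genes). HMMR, which binds hyaluronan and also acts at the mitotic spindle, had 1025 and 1114 counts in control and 1206 and 1295 in RUNX3 KO libraries and rose by 0.21 on the log2 scale (SE 0.0470, edgeR adjusted p = 8.12e-05). HABP4, an intracellular binding protein, fell by 0.49 on the log2 scale (SE 0.0732). SUSD5, a membrane protein with a Link domain of the kind that binds hyaluronan, had 251 and 221 counts in control and 743 and 729 in RUNX3 KO libraries. Its log2 fold change was 1.63 (SE 0.0751, edgeR adjusted p = 1.26e-34), opposite to that of CD44. PTX3, which cross-links hyaluronan matrices, went from 17 and 13 counts to 0 in both RUNX3 KO libraries and was at least 5.05-fold lower against the floor of 3 counts per library.

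Enzymes of the UDP-sugar precursors were all tested, 20 of 20 beside UGDH. Of these, 6 fell (30%) and 5 rose (25%), none by 2-fold, beside 24.4% and 24.5% of all tested genes, with a median log2 fold change of -0.03. GPI, a glycolytic isomerase and the most abundant of the list per length, rose by 0.22 on the log2 scale (SE 0.0211), and MGEA5, which removes O-linked N-acetylglucosamine from proteins, fell by 0.08 (SE 0.0300). Of the listed hexokinases, which act at the head of glycolysis, HK1 fell from 406 and 469 to 216 and 226 counts, just short of 2-fold (log2 fold change -0.998, SE 0.0869), and HK2, with 2471 and 2503 counts in control, rose by 0.10 on the log2 scale (edgeR adjusted p = 0.00853). Among genes of hyaluronan degradation, GUSB, a lysosomal enzyme that removes glucuronic acid, fell by 0.47 on the log2 scale (SE 0.0464). The sperm hyaluronidase gene SPAM1 had from 0 to 2 counts per library, and KIAA1199 (CEMIP), the homologue of TMEM2, had 1 count over all 4 libraries.

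Among genes that act with CD44, 13 of 19 were tested, of which 5 fell and 5 rose (38.5% each, beside 24.4% and 24.5% of all tested genes). EZR and RDX, which tie the tail of CD44 to actin, rose by 0.16 (SE 0.0381) and 0.13 (SE 0.0287) on the log2 scale. MSN, the third protein of that family, fell by 0.40 (SE 0.0330). ANK3, an ankyrin of the membrane skeleton, rose from 163 and 158 to 508 and 508 counts, a log2 fold change of 1.65 (SE 0.0885, edgeR adjusted p = 4.39e-30). MMP14, a membrane protease that can shed CD44, fell from 1592 and 1478 to 746 and 760 counts, a log2 fold change of -1.04 (SE 0.0482), beside a median of -0.34 over the 40 tested genes around it. Of the other proteases listed as able to shed CD44, ADAM10 rose by 0.32 (SE 0.0485) on the log2 scale, beside a neighbourhood median of 0.24, and ADAM17 was not called (log2 fold change -0.02, SE 0.0676). SPP1 and LGALS9, 2 listed ligands of CD44 other than hyaluronan, had 0 counts in every library, and SRGN had at most 3.

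Of the versican proteases and enzymes of chondroitin sulfate assembly, 17 of 19 were tested, 7 fell (41.2%) and 2 rose (11.8%), beside 24.4% and 24.5% of all tested genes. The proteases ADAMTS4 and ADAMTS5, which cut versican and aggrecan, fell by 2.43 (SE 0.237) and 1.37 (SE 0.223) on the log2 scale. ADAMTS4 went from 84 and 88 to 17 and 15 counts and ADAMTS5 from 64 and 72 to 29 and 24. ADAMTS1 also fell, by 0.49 (SE 0.0885). ADAMTS9, with 969 and 968 counts in control the most counted of these proteases, rose by 0.16 (SE 0.0483), and ADAMTS15 and ADAMTS20 were not called. XYLT1, which starts glycosaminoglycan chains on core proteins, fell from 540 and 534 to 240 and 231 counts, a log2 fold change of -1.20 (SE 0.0800, edgeR adjusted p = 3.72e-24). The related XYLT2 was not called (log2 fold change 0.10, SE 0.0647, edgeR adjusted p = 0.219), nor were CHST3 and B3GAT3, the most abundant genes of the list per length (log2 fold changes 0.05 and 0.11).

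**Figure D4:**
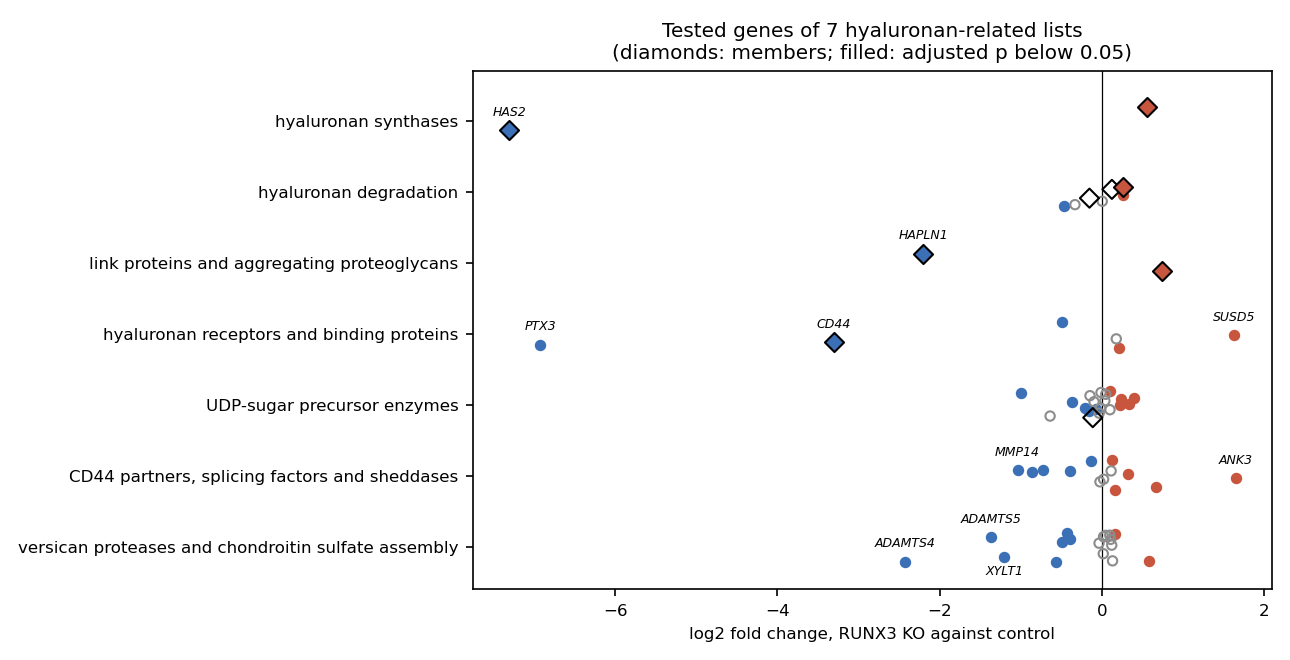
Log2 fold change of RUNX3 KO against control cells (x axis) for each tested gene of 7 lists (y axis). Diamonds are members and circles other genes. Blue marks lower and red higher genes at an adjusted p below 0.05, open symbols are not called, and genes past 2-fold are named. HAS2, CD44 and HAPLN1 stand at -7.31, -3.30 and -2.20, and the fitted values of HAS2 and PTX3 rest on 1 and 0 counts in RUNX3 KO cells.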

How the data were processed

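RNA-seq was performed on 4 HGC-27 libraries, grouped by title as control (n = 2) and RUNX3 KO (n = 2). The files that the authors deposited hold raw, unnormalized counts of reads per gene symbol. The methods of the study name STAR, hg19, featureCounts and GENCODE genes, whereas the submitters' processing notes name HISAT2 2.1.0 and HTSeq, and the tables close with 5 rows in the form of htseq-count. Medium and RNA extraction also differ between these sources. Those 5 rows took from 25.9% to 28.1% of counts per library and were left out. No per-sample columns were left unassigned.

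The fit was made with edgeR 4.0.16 in R 4.3.3 (filterByExpr at its defaults of 10 counts and a total of 15, TMM, glmQLFit and glmQLFTest, prior count 0.125, Benjamini-Hochberg over 12967 genes). The common dispersion was 0.000211. Levels are CPM of the TMM-scaled library, per kilobase of merged GENCODE exons on GRCh37 where genes are compared. Intervals use the SE of the log2 fold change and the test's degrees of freedom. Of 25559 symbols, 21766 matched a gene with a position. Floors are 3 counts per library. Intervals and floors from counts cover counting error only. At this depth genes under about 10 counts could not be compared. Control libraries differed by 1.23 and RUNX3 KO libraries by 1.19 chi-square units per degree of freedom, slightly above sampling noise. The biological coefficient of variation was 1.45%. The libraries were kept as separate replicates, although so small a spread does not show that they came from separate cultures. Steps were tested on simulated data.

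Named genes were all members, genes of the lists called with at least 2-fold, the 2 most abundant tested genes of each list per length, genes overlapping a member, and well-known genes at the floor. HYAL1, NCAN, ESRP1, ESRP2, XYLT2, HK1, HK2, ADAMTS1, ADAMTS9, ADAMTS15, ADAMTS20, DCN, MSN, ADAM10, ADAM17, IQGAP1, CHSY1 and NF2 fall outside that rule and were named after their values were seen. 1 gene that the rule names is not reported here. The members and lists were chosen with earlier results of these data known. A planned search of proteins for the Link domain pattern was not run, because no protein table was used here. Alternatives were other scalings (DESeq2 1.42.0 size factors, library size, upper quartile), filters and tests (DESeq2, limma-voom of limma 3.58.1, edgeR's exact test, its newer quasi-likelihood method and glmTreat), a replicate block, a prior count of 2, subtraction of the median of 40 neighbours, and each library left out.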

Additional observations from a re-analysis of the deposited data

How the results depend on the processing

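The numbers of members called (3 lower and 3 higher) stayed within 1.5 times under each alternative run, and the 3 members past 2-fold became 2 only where 10 counts were required in every library, which removes HAS2. With a minimum of 1.5-fold, HAPLN3 made 1 higher member in place of 0. Of 125 values of single members under alternatives with a test, 118 kept direction and side of the threshold, 4 (all HAS3) lost the call, 2 (both UGDH) gained it and 1 reversed, HYAL3 without RUNX3 KO replicate 1 at 0.02 (range -0.35 to 0.02 with each library left out). With each library left out in turn, log2 fold changes ranged from -3.34 to -3.27 for CD44, -2.25 to -2.16 for HAPLN1, -9.62 to -6.47 for HAS2, 0.68 to 0.81 for HAPLN3 and 0.25 to 0.27 for TMEM2. A prior count of 2 and subtraction of the neighbourhood median carry no test of their own. Of these 18 values, 3 moved by more than the SE, HAS2 to -5.33 with the prior count, and HAPLN3 to 0.20 and TMEM2 to 0.13 after subtraction. The number of other pathway genes called higher (15) ranged from 7 to 14 in the same fits, with 9 without RUNX3 KO replicate 1 and 7 without RUNX3 KO replicate 2; the cause was not tested. Same-numbered libraries showed no shared deviation (correlation -0.0045 over 10869 genes). Because the spread within groups was close to sampling noise, this check could not show a modest pairing by number. With a replicate block 3 members were lower and 3 higher, as without it, and no call changed. Without a filter VCAN had an edgeR adjusted p of 0.477. The search for Link domain genes was not run. Depth limits HAS2 in RUNX3 KO cells and VCAN, whose RUNX3 KO levels rest on 1 and 2 counts.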

Other observations

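Markers fixed for the cell label moved with the groups. All 5 fibroblast and mesenchymal markers were called lower in RUNX3 KO cells by edgeR (24.4% of all tested genes were), and PDGFRA and PDGFRB, receptors for platelet-derived growth factor, fell by 2.33 (SE 0.122) and 1.25 (SE 0.195) on the log2 scale. DCN and LUM, small proteoglycans of the matrix, fell by 0.39 (SE 0.0398) and 0.42 (SE 0.0401), and the intermediate filament gene VIM by 0.75 (SE 0.0194). Only 2 of the 10 epithelial markers could be tested, both at low counts, and both were called higher (24.5% of all tested genes were). The keratin gene KRT8 went from 19 and 11 to 72 and 81 counts (log2 fold change 2.33, SE 0.251). CDH1 went from 15 and 21 to 30 and 32 counts (log2 fold change 0.77, SE 0.293). Of the 10, 7 did not exceed 3 counts in any library, so the list as a whole shows no direction. The erythroid marker list gave HBA1, from 81 and 74 to 139 and 154 counts, with HBB at 0 in every library.

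IQGAP1 and CHSY1, picked after their values were seen, rose by 0.67 (SE 0.0290) and 0.58 (SE 0.0657) on the log2 scale and, like HAPLN3, lay among genes with positive values, with medians of 0.67 over the 40 nearest tested genes of IQGAP1 and 0.66 over 26 around CHSY1. NF2 fell by 0.86 (SE 0.0681) among neighbours with a median of -0.56. The part of the neighbourhood in these values was not tested.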
